A study of Mus musculus with 44 samples.

Results

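Axon guidance ligands and receptors were followed in mouse dorsal root ganglia (DRGs), the sensory ganglia beside the spinal cord, as 74 genes of 45882 listed in the larger expression tables. Members were taken by gene symbol from the semaphorins, plexins, neuropilins, ephrins, Eph receptors, netrins, Unc5 receptors and Dcc, Slits, Robo receptors and Flrt proteins. The symbol rule also took in 3 antisense RNAs of Plxna4. A gene was reported in a table when it reached 1 FPKM in at least 3 libraries (FPKM, fragments per transcript length and library size, is a level per length). That left 47 genes in the table of naive mice, 47 in the table of satellite glial cells after surgery and 35 in the table of neurons. The neuron table lists only 12170 genes, and these 35 are all the members it lists.

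All 44 bulk RNA libraries came from C57BL/6 mice. SGCs (satellite glial cells, which wrap the cell bodies of sensory neurons) were compared 3 d and 14 d after full ligation of the sciatic nerve with SGCs at the same day after sham surgery, 4 libraries a group, from mice aged 9 to 11 weeks. Neurons isolated with magnetic beads 8 d after partial sciatic nerve ligation, also from mice aged 9 to 11 weeks, were compared with sham neurons, 3 male and 3 female libraries per surgery, and a further 4 libraries of the ligated side were set against 4 of the opposite side of ligated mice, whose sex the labels do not give. Naive SGCs from mice aged 9 weeks were compared with naive whole DRGs, 4 libraries each. For the SGC libraries L3 and L4 ganglia were dissociated, fixed in paraformaldehyde, stained and flow-sorted; whole DRGs were fixed without sorting, and the neurons were unfixed, from L3 to L5. The labels do not tie libraries to animals, so every p-value given reflects the spread between libraries, which may be technical.

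Guidance cues are secreted or membrane-bound proteins that steer growing axons by attraction or repulsion. Class 3 semaphorins are secreted and bind neuropilins paired with plexins, whereas the membrane-bound semaphorins bind plexins directly. Ephrins and Eph receptors signal between touching cells in both directions, netrins act through Dcc and Unc5 receptors, Slits act through Robo receptors, and Flrt proteins are adhesion molecules whose shed or membrane-bound ectodomains bind Unc5 receptors and latrophilins. In adult sensory ganglia many of these genes remain transcribed in neurons and in glia.

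The libraries carried the markers of their labels, and markers of other cells too. Summed over 13 satellite glial markers, including Fabp7 and Kcnj10, naive SGCs held 18330 to 25875 FPKM and whole DRGs 6692 to 10131 FPKM. Summed over 13 neuron markers, naive SGCs held 123.3 to 328 FPKM and whole DRGs 2740 to 4780 FPKM. In the neuron table only 5 of the 13 satellite glial markers were listed, and they summed to 40.1 to 78.5 FPKM in neurons after ligation and to 41.8 to 71.3 FPKM in sham neurons. The neuron libraries also held myelinating Schwann cell markers: the 8 of 12 that were listed summed to 736 to 2858 FPKM over all 20 libraries. In SGCs after surgery the 13 neuron markers summed to 196 to 893 FPKM. The part of these other cells in the levels of guidance genes was not tested. Without read counts in the files the sequencing depth is unknown. Between 10225 and 13173 genes reached 1 FPKM in a library, and the 3 tables have separate scales.

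By family, the reported genes were 15 of 20 semaphorins in the naive table, 14 in SGCs after surgery and 11 in neurons. The naive table holds whole DRG libraries beside SGC libraries, so being reported there does not place a gene in glia. Sema4f, Sema5a, Sema5b, Plxna4 and Unc5c reached its filter only through the DRG libraries, and Efna4 only through the SGC libraries. All 9 plexins were reported in the naive table and in SGCs after surgery and 7 in neurons, and both neuropilins in every table. Of 14 Eph receptors 7 were reported in the naive table, 7 in SGCs after surgery and 3 in neurons. Of 8 ephrins 6 were reported in the naive table, 7 in SGCs after surgery and 4 in neurons. Of 3 netrins 1 was reported in each table, and of 3 Slits only Slit1, in neurons. Members missing from the shorter neuron table have no level here. The lower family counts in neurons therefore do not show that those genes were absent or low. Over all 16 SGC libraries after surgery, ligated and sham together, the highest mean levels were those of Sema3b (27.7 FPKM), Ephb6 (24.8 FPKM), Sema4b (23.8 FPKM) and Efna1 (18.4 FPKM), where Sema3b is a secreted semaphorin, Ephb6 an Eph receptor without kinase activity and Efna1 a membrane-anchored ephrin. The next 6 were Flrt3, Plxnb2, Nrp1, Sema6a, Sema3c and Sema4a, at 16.1 down to 9.68 FPKM. The place of Flrt3 rests on the ligated libraries: it averaged 26.3 FPKM at 3 d and 21.3 FPKM at 14 d after ligation, against 8.15 FPKM at 3 d and 8.65 FPKM at 14 d after sham, where it lay below the other 5. In the naive table, SGC and whole DRG libraries together, Ephb6 (26.2 FPKM), Sema4b (23.5 FPKM) and Sema3b (22.9 FPKM) led. Efna1, Nrp1, Plxnb2, Sema3c, Sema6a, Sema6d and Efna5 followed, at 17.8 down to 8.23 FPKM. Of these, Efna5 averaged 4.28 FPKM in naive SGCs and 12.2 FPKM in whole DRGs, and Nrp1 9.75 FPKM and 21.4 FPKM. Efna1 too averaged less in naive SGCs, and the other genes named for this table averaged more. Over all 20 neuron libraries, injured and sham together, the highest were Efna1 (101 FPKM), Plxnc1 (40.1 FPKM), Flrt3 (35.4 FPKM) and Robo2 (23.2 FPKM), where Plxnc1 is the receptor of Sema7a and Robo2 a Slit receptor. Nrp1, Efna5, Sema4f, Sema4d, Plxnd1 and Sema6d followed, at 21.1 down to 10.8 FPKM. Here too the place of Flrt3 rests on libraries after ligation: in sham neurons it averaged 15.8 FPKM, below Robo2 (25.8 FPKM), Nrp1 (19.8 FPKM), Efna5 (18.3 FPKM), Sema4d (17.4 FPKM) and Sema4f (16.4 FPKM).

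Naive SGCs differed from whole DRGs in 23 of 47 guidance genes. Receptors such as Robo2, Plxna2 and Plxnc1 were lower in SGCs, whereas a group of semaphorins led by Sema3c and Sema4b was higher. By limma's test on log2(FPKM + 1), with an adjusted p under 0.05 over all genes tested, 10 were higher and 13 lower. Of all 13621 genes tested 44.4% passed, 16.4% higher and 27.9% lower, so the share of guidance genes that differed lies near the background. At an unadjusted p under 0.05 stood 29 of the 47, against 51.7% of all genes. The libraries of the groups did not overlap for 8 guidance genes that were higher and 14 that were lower in SGCs, against 2182 higher of all 13621 genes and 27.0% lower. Of the 13 that were lower, Sema4f, Sema5a, Plxna4, Sema5b and Unc5c reached the level filter only through the DRG libraries, so they could only have been lower. They remain in the counts of lower ligands and receptors that follow. Ligands had 7 higher and 5 lower of 25 and receptors 3 higher and 8 lower of 22, with a median log2 difference of 0.14 for ligands and 0.30 for receptors against -0.13 over all genes tested. The receptors' median is thus above 0 although more of them were called lower than higher. In such bulk samples fewer cells of a type and less RNA per cell cannot be told apart. After quantile normalization the median over all genes was 0.15, and 20 guidance genes were higher and 11 lower. The calls over all 13621 genes moved the same way, to 3770 higher and 2756 lower from 2240 higher and 3801 lower. Each of the 23 genes kept its direction there, and Unc5c and Plxna1 were no longer called.

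Among the receptors that were lower in naive SGCs, Robo2 stood at 1.48, 2.04, 1.88 and 1.58 FPKM in SGCs and at 10.1, 11.4, 10.7 and 8.46 FPKM in whole DRGs. The groups did not overlap, and the difference was -2.02 (log2, SE 0.15, adjusted p 3.34e-05). Plxna4, a receptor of class 6 semaphorins and a partner of neuropilins, had 0.0977, 0.163, 0.537 and 0.35 FPKM in SGCs and 5.37, 5.22, 4.8 and 3.77 FPKM in whole DRGs, a difference of -2.17 (SE 0.17, adjusted p 4.71e-05). Plxna4 reached the level filter only through the DRG libraries, so it could only have been lower. Plxna2, which binds Sema6a, had 2.83, 2.64, 1.67 and 2.24 FPKM in SGCs and 13.6, 13.7, 8.82 and 7.9 FPKM in whole DRGs. Its SGC libraries also lay below every DRG library, with a difference of -1.82 (SE 0.22, adjusted p 0.000307). Plxnc1 had 1.25, 1.14, 1.69 and 0.461 FPKM in SGCs and 6.13, 10.3, 7.55 and 6.05 FPKM in whole DRGs (-2.001, SE 0.24, adjusted p 0.000289).

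Both neuropilins, the ligand-binding receptors of class 3 semaphorins, were lower in naive SGCs. Nrp1 had 8.47, 9.1, 7.83 and 13.6 FPKM in SGCs and 19.2, 24.1, 22.0 and 20.5 FPKM in whole DRGs (-1.09, SE 0.18, adjusted p 0.00148). Nrp2 averaged 3.08 ± 0.42 FPKM in SGCs and 5.64 ± 0.50 FPKM in whole DRGs (SD, n = 4 each), a difference of -0.71 (adjusted p 0.00353). In both genes every SGC library lay below every DRG library. Plxna1, a neuropilin partner, differed by -0.66 (adjusted p 0.00594), and the netrin receptor gene Unc5c was at or below 0.098 FPKM in SGCs and at 0.909 to 1.66 FPKM in whole DRGs (adjusted p 0.000589). Unc5c, too, reached the level filter only through the DRG libraries. The receptors that were higher were Plxnb2, a receptor of class 4 semaphorins (0.80, adjusted p 0.0477), Ephb6 (0.75, adjusted p 0.0261) and Epha7, a receptor of A-type ephrins (0.71, adjusted p 0.0469). Their SGC libraries overlapped the DRG libraries in Plxnb2 and Epha7. Leaving out single libraries ended the calls of Plxnb2 (each SGC library but replicate 1 and each DRG library but replicate 4), Epha7 (each SGC library but replicate 3 and each DRG library but replicate 4) and Ephb6 (DRG replicates 2 and 3), with adjusted p up to 0.116, 0.126 and 0.0723. With no level filter Plxnb2, Epha7, Efnb1 and Sema3g were not called, nor was Plxnb2 with a pseudocount of 0.1.

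Of 15 semaphorins 6 were higher in naive SGCs and 3 were lower. Secreted Sema3c had 12.2, 14.9, 16.5 and 12.1 FPKM in SGCs and 4.35, 4.58, 6.72 and 5.97 FPKM in whole DRGs, a difference of 1.23 (log2, SE 0.17, adjusted p 0.0007). Sema4b, a membrane-bound class 4 semaphorin, had 39.5, 34.0, 25.8 and 33.0 FPKM in SGCs and 13.8, 11.8, 12.3 and 17.6 FPKM in whole DRGs (1.20, SE 0.17, adjusted p 0.000797). Sema6a, a membrane-bound ligand of Plxna2 and Plxna4, had 13.3, 13.3, 10.5 and 12.8 FPKM in SGCs and 5.76, 5.26, 5.58 and 8.78 FPKM in whole DRGs (0.89, SE 0.18, adjusted p 0.00361). In all 3 genes the SGC libraries lay above every DRG library, and the same held for Sema4a, at 5.86 to 12.2 FPKM in SGCs and 3.54 to 4.99 FPKM in whole DRGs (0.97, adjusted p 0.00794), and for Sema3b, at 23.6 to 37.9 FPKM in SGCs and 12.3 to 21.3 FPKM in whole DRGs (0.75, adjusted p 0.0152). Sema3g, a secreted semaphorin that binds Nrp2, differed by 0.73 (adjusted p 0.0372) with overlapping libraries, and its call ended without SGC replicate 2, 3 or 4 or without DRG replicate 1, 2 or 3 (adjusted p up to 0.103). Beside these, the summed level of 10 endothelial markers was 108 to 225 FPKM in naive SGCs and 49.9 to 94.9 FPKM in whole DRGs, with 5 of the 10 higher and none lower. Their part in the higher semaphorins was not tested.

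Among the semaphorins that were lower, the membrane-bound Sema4f had the largest difference on log2(FPKM + 1). Sema4f, Sema5a and Sema5b reached the level filter only through the DRG libraries, so they could only have been lower. Sema4f was listed at 0 in SGC replicate 1 and had 0.249, 0.164 and 0.29 FPKM in the other SGC libraries, against 7.94, 7.35, 7.65 and 5.79 FPKM in whole DRGs (-2.80, SE 0.16, adjusted p 1.23e-05). Sema5a, a semaphorin with thrombospondin repeats, had 0.147 to 0.471 FPKM in SGCs and 2.94 to 5.002 FPKM in whole DRGs (-1.87, adjusted p 9.60e-05). Its relative Sema5b was listed at 0 in all 4 SGC libraries and at 1.01 to 2.02 FPKM in whole DRGs (adjusted p 0.00029). Myelinating Schwann cell markers, of which 9 of 12 were lower in naive SGCs, summed to 647 to 747 FPKM in SGCs and 1330 to 1791 FPKM in whole DRGs, and macrophage markers, of which 8 of 10 were lower, to 3.99 to 11.3 FPKM in SGCs and 73.6 to 89.4 FPKM in whole DRGs. The part of these cells in the lower guidance genes was not tested.

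Ephrins split. Efnb1, a transmembrane ephrin, had 5.11, 8.27, 4.66 and 7.28 FPKM in naive SGCs and 2.96, 1.87, 3.31 and 4.63 FPKM in whole DRGs (0.82, SE 0.25, adjusted p 0.0275), a call that ended without SGC replicate 2 or 4 or without DRG replicate 1, 2 or 3 (adjusted p up to 0.0715). Efnb2, also transmembrane, had 3.62, 2.27, 1.84 and 3.22 FPKM in SGCs and 5.37, 7.66, 5.66 and 4.12 FPKM in whole DRGs (-0.84, SE 0.22, adjusted p 0.0146). Efna5, a membrane-anchored ephrin, had 6.47, 4.8, 4.12 and 1.72 FPKM in SGCs and 13.1, 16.6, 10.3 and 8.71 FPKM in whole DRGs (-1.38, SE 0.32, adjusted p 0.00893). For these ephrins the SGC and DRG libraries did not overlap. None of the 3 Flrt genes and not Ntn4 passed the test: Flrt1 differed by -0.25 (adjusted p 0.151) and Ntn4, a laminin-like netrin, by -0.03 (adjusted p 0.897).

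**Figure D1:**
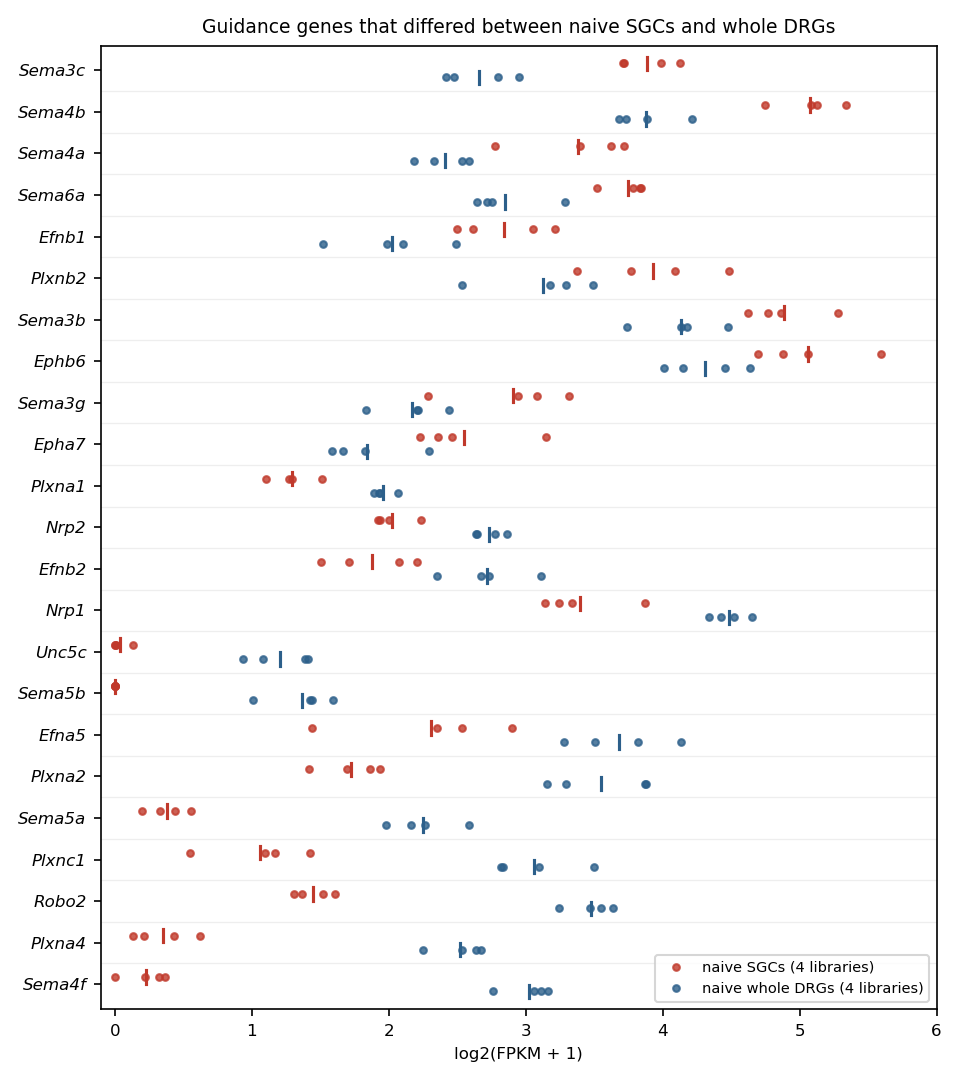
Level of the 23 guidance genes that differed in naive SGCs (red, above) from whole DRGs (blue, below), as log2(FPKM + 1). Points are libraries, 4 a group, and vertical ticks are group means. For Sema4f, Plxna4, Robo2 and Plxnc1 the SGC libraries lie far left of the DRG libraries, and Sema3c and Sema4b lie to the right. Sema4f and Plxna4 reached the level filter only through the DRG libraries.

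SGCs and isolated neurons after sham surgery were set side by side by rank, because their tables were scaled separately. In each library a gene's FPKM was ranked among the 12170 genes listed in both tables, as a percentile. Of 35 guidance genes, 11 ranked higher in each of the 8 sham SGC libraries than in any of the 6 sham neuron libraries, 8 ranked higher in each neuron library, and 16 overlapped. Over all genes in both tables these shares were 22.4% with SGCs above and 22.5% with neurons above. Among only the 10859 genes at the filter in both tables, 31 guidance genes gave 8 with SGCs above and 7 with neurons above. The shares over all of these filtered genes were not computed. Fixation, sorting, ganglia and table differ together with the cell type here and cannot be told apart.

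The widest rank gaps with SGCs above were those of 2 semaphorins. Sema6a had a median percentile of 71.2 (64.2 to 76.7) in sham SGCs and 7.47 (5.28 to 16.6) in sham neurons, and Sema4a 67.4 (52.1 to 73.2) in sham SGCs and 6.51 (1.92 to 10.9) in sham neurons. Sema3c followed, at 69.7 (60.4 to 77.3) in SGCs and 25.3 (7.66 to 32.7) in neurons. Among receptors Ephb6 had 81.0 (71.1 to 84.4) in SGCs and 44.7 (29.1 to 60.1) in neurons, and Plxnb2 72.7 (49.0 to 83.9) in SGCs and 36.8 (27.5 to 47.8) in neurons.

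With neurons above, Plxnc1 had a median percentile of 27.5 (20.4 to 39.5) in sham SGCs and 82.9 (77.4 to 84.6) in sham neurons, Sema4f 21.7 (11.7 to 30.2) in SGCs and 64.1 (56.5 to 71.6) in neurons, and Robo2 35.2 (17.3 to 49.8) in SGCs and 72.1 (67.5 to 78.5) in neurons. The same order held for Sema4d, a membrane-bound ligand of Plxnb1, for Plxnd1, the receptor of Sema3e, and for Efna5, Efna1 and Slit1. Of the 8 genes higher in naive SGCs that had a rank, 7 ranked with SGCs above and none with neurons above. Of the 10 that were lower in naive SGCs, 4 ranked with neurons above and 2, Nrp2 and Efnb2, with SGCs above. Sema4f, among these 4, and Plxna4, whose ranks overlapped, reached the naive level filter only through the DRG libraries. The matching shares over all genes were not computed, so these counts by naive call are not a result about guidance genes. Nrp2 had 37.4 (35.6 to 45.5) in SGCs and 19.8 (10.9 to 30.4) in neurons. Its lower level in naive SGCs than in whole DRGs was thus not matched by a higher rank in these isolated neurons. In sham neurons 8 markers of pain-sensing neurons summed to 3282 to 6649 FPKM, and the 7 listed of 8 large-diameter neuron markers to 127 to 441 FPKM. In naive whole DRGs the sums were 566 to 1126 FPKM and, over all 8 large-diameter markers, 964 to 1278 FPKM. Naive SGCs also held 712 to 832 FPKM of these large-diameter markers. Which sensory neurons the isolated ones stand for was not tested. Flrt3 overlapped, at 59.9 (55.9 to 67.9) in SGCs and 64.2 (49.1 to 71.7) in neurons.

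**Figure D2:**
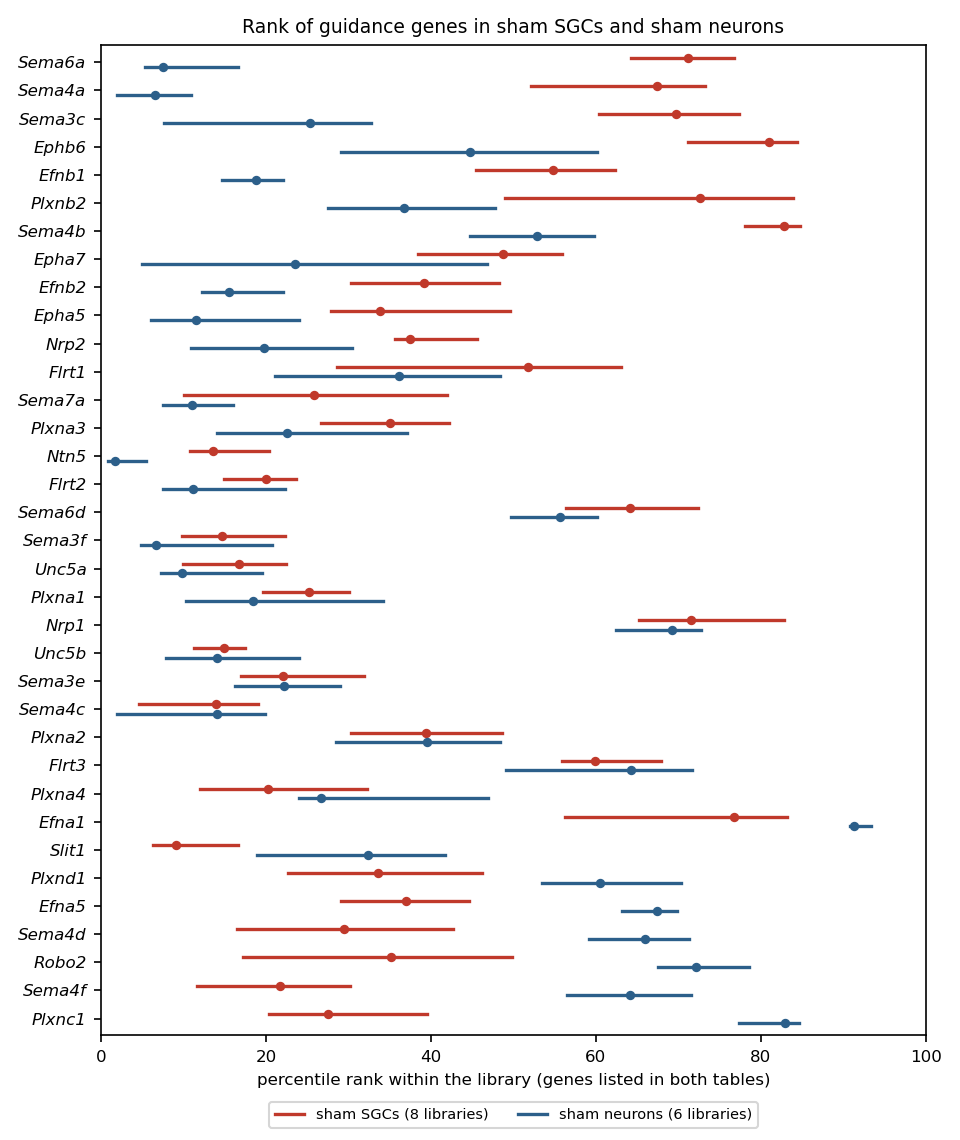
Percentile rank within a library of the 35 guidance genes listed in both tables, in sham SGCs (red, above, 8 libraries) and sham neurons (blue, below, 6 libraries). Points are medians and lines run from the lowest to the highest library; Sema6a and Sema4a, at the top, rank high in SGCs only, and Plxnc1, Sema4f and Robo2, at the bottom, rank high in neurons.

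After nerve ligation Flrt3 was higher in SGCs at 3 d and in neurons at 8 d. At 3 d it had 27.2, 18.6, 38.1 and 21.3 FPKM in SGCs after ligation and 7.82, 7.37, 6.46 and 10.9 FPKM in sham SGCs. Every ligated library lay above every sham library, the ratio of means was 3.23, and the difference was 1.55 (log2, SE 0.24, adjusted p 0.0357). It was the only one of 47 guidance genes that passed, where 0.0409% of all 14675 genes tested did, 0.0273% higher and 0.0136% lower. At an unadjusted p under 0.05 stood 5 of the 47, against 8.91% of all genes. The call ended when sham replicate 1, 2 or 3 or ligated replicate 1, 3 or 4 was left out (log2 difference 1.36 to 1.63, adjusted p 0.0657 to 0.0882), when only these 2 groups were fitted (adjusted p 0.265), with no level filter (0.0723) and with array weights (0.0535); the difference stayed between 1.36 and 1.69 in every alternative. At 14 d Flrt3 had 22.0, 23.1, 24.0 and 16.3 FPKM in SGCs after ligation and 6.62, 11.7, 8.53 and 7.72 FPKM in sham SGCs. The libraries again did not overlap, but the difference of 1.22 (SE 0.24) did not pass (adjusted p 0.220). None of the 47 guidance genes passed at 14 d by limma, where 0.00681% of all genes did; 2 had an unadjusted p under 0.05, against 5.06% of all genes, and array weights gave 1 call, Flrt3.

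In neurons 8 d after ligation Flrt3 had 42.9, 32.5 and 72.9 FPKM in males and 39.8, 44.5 and 58.1 FPKM in females, against 21.2, 22.6 and 13.3 FPKM in sham males and 18.3, 8.72 and 10.6 FPKM in sham females. All 6 ligated libraries lay above all 6 sham libraries, with a difference of 1.58 (log2, SE 0.26, adjusted p 0.00553). On the ligated side it had 100.008, 59.0, 40.7 and 57.7 FPKM, and on the opposite side of ligated mice 16.9, 14.3, 10.2 and 24.0 FPKM (1.90, SE 0.32, adjusted p 0.00364); fitted on these 2 groups alone the adjusted p was 0.0511. The ligation effect on Flrt3 was not shown to differ between 14 d and 3 d in SGCs (difference -0.33, SE 0.33) or between female and male neurons (0.60, SE 0.52), with no adjusted p under 0.05 by limma. Before injury it did not pass between naive SGCs, at 6.51, 4.09, 8.64 and 6.49 FPKM, and whole DRGs, at 4.08, 5.23, 5.71 and 5.23 FPKM (0.27, adjusted p 0.336). Flrt1 and Flrt2 had no call in any ligation comparison.

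No marker of the other cell types passed the test in SGCs after ligation, but some sums were higher beside Flrt3. The summed level of 13 neuron markers was 442 to 723 FPKM at 3 d after ligation and 196 to 893 FPKM after sham, which overlap, with 6 of 13 above 0 in log2 difference. At 14 d it was 300 to 813 FPKM after ligation and 245 to 527 FPKM after sham, with 10 of 13 above 0. All 6 macrophage markers tested were above 0 at 14 d, with a median of 0.70, and the 10 on the list summed to 13.0 to 34.6 FPKM after ligation and 3.69 to 19.0 FPKM after sham. All 10 endothelial markers were above 0 in log2 difference at both days with none called, and summed to 273 to 517 FPKM at 3 d after ligation against 185 to 346 FPKM after sham. Of the 5 repair Schwann cell markers tested none passed in SGCs and 1 was above 0 at 3 d, but the sum over the list of 8 was 499 to 646 FPKM at 3 d after ligation and 371 to 474 FPKM after sham, carried by Gap43, a growth cone protein that sensory neurons also make. Gap43 had 109 to 319 FPKM at 3 d after ligation and 14.2 to 59.9 FPKM after sham (2.27, adjusted p 0.182). The part of these cells in the Flrt3 difference was not tested. In neurons the sums of the 5 listed satellite glial markers overlapped between ligated and sham, with no call. All 6 endothelial markers tested in neurons were below 0 against sham, with a median of -0.49 and no call, and they summed to 20.4 to 55.5 FPKM on the ligated side and 53.7 to 124 FPKM on the opposite side. The 3 listed repair Schwann cell markers summed to 617 to 820 FPKM in neurons after ligation and 286 to 611 FPKM after sham, and to 517 to 973 FPKM on the ligated side and 245 to 391.7 FPKM on the opposite side; of these Gap43 was called in both comparisons (1.14, adjusted p 0.0177, and 1.76, adjusted p 0.00116). Their part in the neuron results was not tested.

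Flrt3 lies on chromosome 2 at positions 140650914 to 140671469 of GRCm38, on the minus strand, and overlaps Macrod2 on the other strand. The sources used here do not say whether counting used strand, so reads of the overlap cannot be assigned with certainty. Macrod2 did not pass in any ligation comparison, with a log2 difference of 0.68 in SGCs at 3 d (adjusted p 0.550), 0.45 at 14 d and 0.18 in neurons (adjusted p 0.999). The promoter window of Flrt3 is shown because it is the only guidance gene called higher after ligation in both SGC libraries (at 3 d) and neuron libraries. The SGC call ended in several alternative fits, and the part of other cells in it was not tested. It covers 250 bases before and 50 after the annotated start in RefSeq, GRCm38.p6 chr2:140671427-140671726, minus strand. Both strands were searched for the AP-1 motif TGANTCA and the CRE-like motif TGACNTCA, which are bound by injury-related factors of the AP-1 and ATF families; capitals mark the 1 CRE-like match, which starts 41 bases before the gene start.

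Flrt3 promoter: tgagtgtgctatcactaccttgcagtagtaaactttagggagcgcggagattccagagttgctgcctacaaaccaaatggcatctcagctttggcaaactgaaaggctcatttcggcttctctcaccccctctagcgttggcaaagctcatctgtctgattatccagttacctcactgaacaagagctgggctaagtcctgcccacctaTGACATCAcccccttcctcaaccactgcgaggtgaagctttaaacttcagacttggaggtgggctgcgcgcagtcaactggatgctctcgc

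No AP-1 motif occurs in this window. Of 32851 promoter windows of the same length, 8.83% hold the CRE-like motif and 7.81% the AP-1 motif. The 4 windows of Sema4a hold neither. A match describes letters, not binding.

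Sema6a was higher in neurons after ligation, with the largest ratio among the guidance genes called there. It had 3.25, 3.51 and 5.39 FPKM in male neurons and 5.01, 5.61 and 8.00 FPKM in female neurons after ligation, against 0.28, 1.29 and 0.508 FPKM in sham males and 0.585, 1.12 and 0.461 FPKM in sham females. No ligated library overlapped a sham library in either sex, the means were 5.13 ± 1.72 FPKM after ligation and 0.708 ± 0.402 FPKM after sham (SD, n = 6 each), and the difference was 1.83 (log2, SE 0.25, adjusted p 0.000865). On the ligated side Sema6a had 10.3, 7.53, 4.95 and 7.25 FPKM and on the opposite side 0.0509, 0.691, 1.06 and 0.469 FPKM (2.44, SE 0.31, adjusted p 0.000149). Both calls held in every alternative fit and with each single library left out. SGCs, where Sema6a was already among the 10 highest guidance genes, had 16.6, 14.4, 18.1 and 17.7 FPKM at 3 d after ligation and 13.3, 17.04, 8.89 and 15.2 FPKM after sham. That difference of 0.31 (SE 0.19) did not pass (adjusted p 0.662), nor did the one of 0.32 at 14 d. Of its receptors, Plxna4 differed by 0.35 in neurons after ligation against sham (adjusted p 0.999) and by 1.17 between the sides (adjusted p 0.158), at 6.54, 5.36, 3.23 and 7.6 FPKM on the ligated side and 1.94, 2.86, 0.885 and 2.17 FPKM on the opposite side, without overlap. Plxna2 differed by -0.26 against sham and by -0.13 between the sides, with no call.

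Sema4a was higher on the ligated than on the opposite side. It had 1.20, 1.62, 1.67 and 3.36 FPKM on the ligated side, and on the opposite side 0.371 FPKM in 1 library and a listed 0 in the other 3 (1.40, SE 0.32, adjusted p 0.0496). This call lay at the threshold: leaving out any one of the 8 libraries ended it (log2 difference 1.20 to 1.53, adjusted p 0.0524 to 0.137). So did quantile normalization (adjusted p 0.0944), array weights (0.0929), a filter on 4 libraries (0.0523) and a fit of only these 2 groups (0.233). Against sham it did not pass (0.83, SE 0.26, adjusted p 0.585), with 1.03, 0.457 and 2.28 FPKM in males and 1.61, 3.52 and 1.54 FPKM in females after ligation and 0 to 0.895 FPKM in sham neurons, where 1 library overlapped the sham range. In SGCs at 3 d Sema4a went the other way in value without passing, at 6.79 to 12.6 FPKM after ligation and 7.88 to 13.9 FPKM after sham (-0.40, adjusted p 0.665). Plxnd1, to which Sema4a can bind, had 6.69, 5.22, 8.24 and 6.89 FPKM on the ligated side and 12.7, 21.8, 9.86 and 15.4 FPKM on the opposite side (log2 difference -1.0, SE 0.31, adjusted p 0.208), and in ligated neurons -0.56 against sham (adjusted p 0.999).

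**Figure D3:**
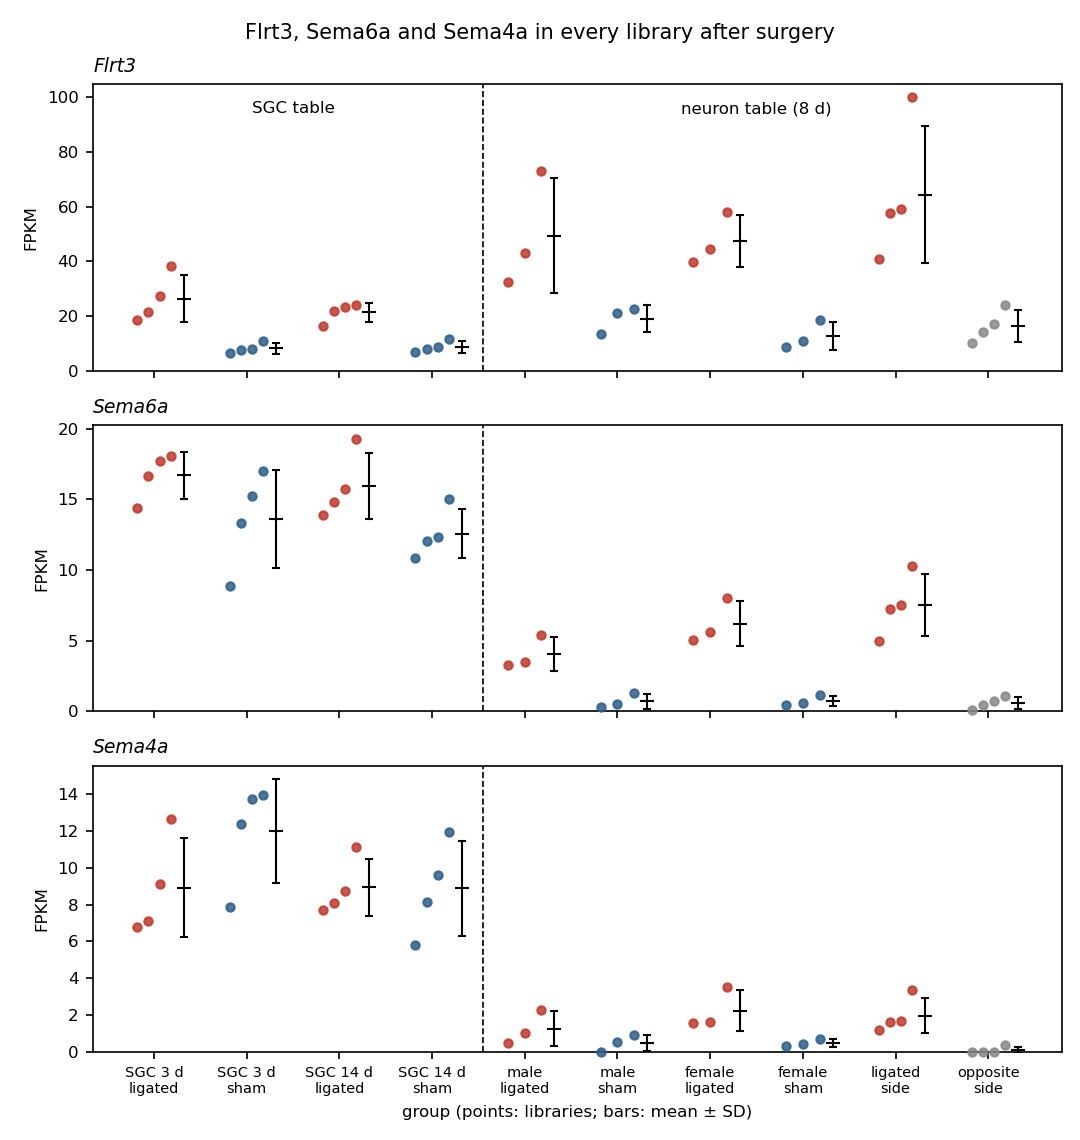
FPKM of Flrt3, Sema6a and Sema4a in every library after surgery (red, ligated; blue, sham; grey, opposite side), with the mean ± SD beside each group; the dashed line parts the SGC table from the neuron table, which were scaled separately. Flrt3 is higher after ligation in each pair, Sema6a in the neuron pairs, and Sema4a is near 0 on the opposite side.

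Few other guidance genes differed after ligation. In neurons 2 of 35 passed against sham and 3 of 35 between the sides, all higher, where 0.28% and 0.667% of the 12145 genes tested passed in either direction, 0.0% and 0.00823% of them lower; all of these were ligands, and none of the 15 receptors passed. At an unadjusted p under 0.05 stood 5 guidance genes against sham and 9 between the sides, against 3.58% and 9.85% of all genes. Without overlap between groups stood 2 guidance genes higher at 3 d in SGCs (Flrt3 and Ephb6, where 1.74% of all genes did), 1 lower (Efna5, 1.96%), 3 higher at 14 d (Flrt3, Nrp1 and Ntn4, 1.64%) and none lower (2.28%), 2 higher in neurons against sham (0.692%) and none lower (0.0988%), and between the sides 5 higher (Flrt3, Sema6a, Sema4a, Plxna4 and Nrp1, 2.68%) and 3 lower (Plxnd1, Flrt1 and Plxna1, 1.78%). Ephb6 had 32.7, 35.1, 27.2 and 25.8 FPKM in SGCs 3 d after ligation and 16.6, 12.9, 25.6 and 21.6 FPKM after sham (0.66, SE 0.31, adjusted p 0.553). Ntn4 had 1.57, 1.87, 1.24 and 1.87 FPKM at 14 d after ligation and 1.21, 0.72, 0.576 and 0.697 FPKM after sham (0.56, SE 0.25, adjusted p 0.977). Nrp1 had 26.3, 26.2, 25.9 and 24.0 FPKM on the ligated side and 19.8, 16.7, 21.9 and 7.17 FPKM on the opposite side (0.72, SE 0.27, adjusted p 0.358).

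The remaining values nearest to a call in SGCs at 3 d were those of Sema4g, a membrane-bound semaphorin (-0.56), Sema4f (0.65), Plxna4os2, an antisense RNA within Plxna4 (0.78), Flrt2 (-0.48), Sema7a, a membrane-anchored ligand of Plxnc1 (0.73), and Sema3e, a secreted ligand of Plxnd1 (-0.46), with adjusted p from 0.505 to 0.628. Efna5 (-0.41) and Ephb4, the receptor of Efnb2 (0.39), followed. Plxna4os2 overlaps Plxna4 on the other strand, so its reads and those of Plxna4 cannot be told apart with certainty. At 14 d they were Sema3c (0.58), Ephb3, a receptor of B-type ephrins (-0.56), Robo4, a roundabout receptor of endothelial cells (0.55), Sema4f (0.50), Plxna4 (0.49), Nrp1 (0.38), the membrane-bound Sema6d (-0.27), the transmembrane ephrin Efnb3 (-0.64) and the membrane-anchored Efna2 (0.51), with adjusted p from 0.996 to 1. In neurons against sham they were Ntn5, a netrin-like gene listed at 0 in 5 of 6 sham libraries (0.54), Sema4b (-0.50), Unc5b, which binds Flrt3 and netrins (-0.44), Plxnc1 (-0.30), Ephb6 (-0.44), Epha5, a receptor of A-type ephrins (0.32), and Plxnb2 (-0.40), each with an adjusted p of 0.999. Between the sides they were Plxna3, a neuropilin partner (-1.12), Flrt1 (-0.84), Plxnc1 (-0.58), Robo2 (-0.48), Sema3c (0.76) and Slit1 (-0.90), with adjusted p from 0.348 to 0.575. On the opposite side 1 library held 21.2 FPKM of Slit1 and the other 3 held 1.81 to 4.61 FPKM. None of the 35 guidance genes in neurons differed in its ligation effect between the sexes by limma, nor any of all 12145 genes (0.0%), and no guidance gene had an unadjusted p under 0.05 there, where 1.07% of all genes did. Between 14 d and 3 d in SGCs none of 47 differed either (background 0.00681%), also none at an unadjusted p under 0.05, where 4.27% of all genes did.

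**Figure D4:**
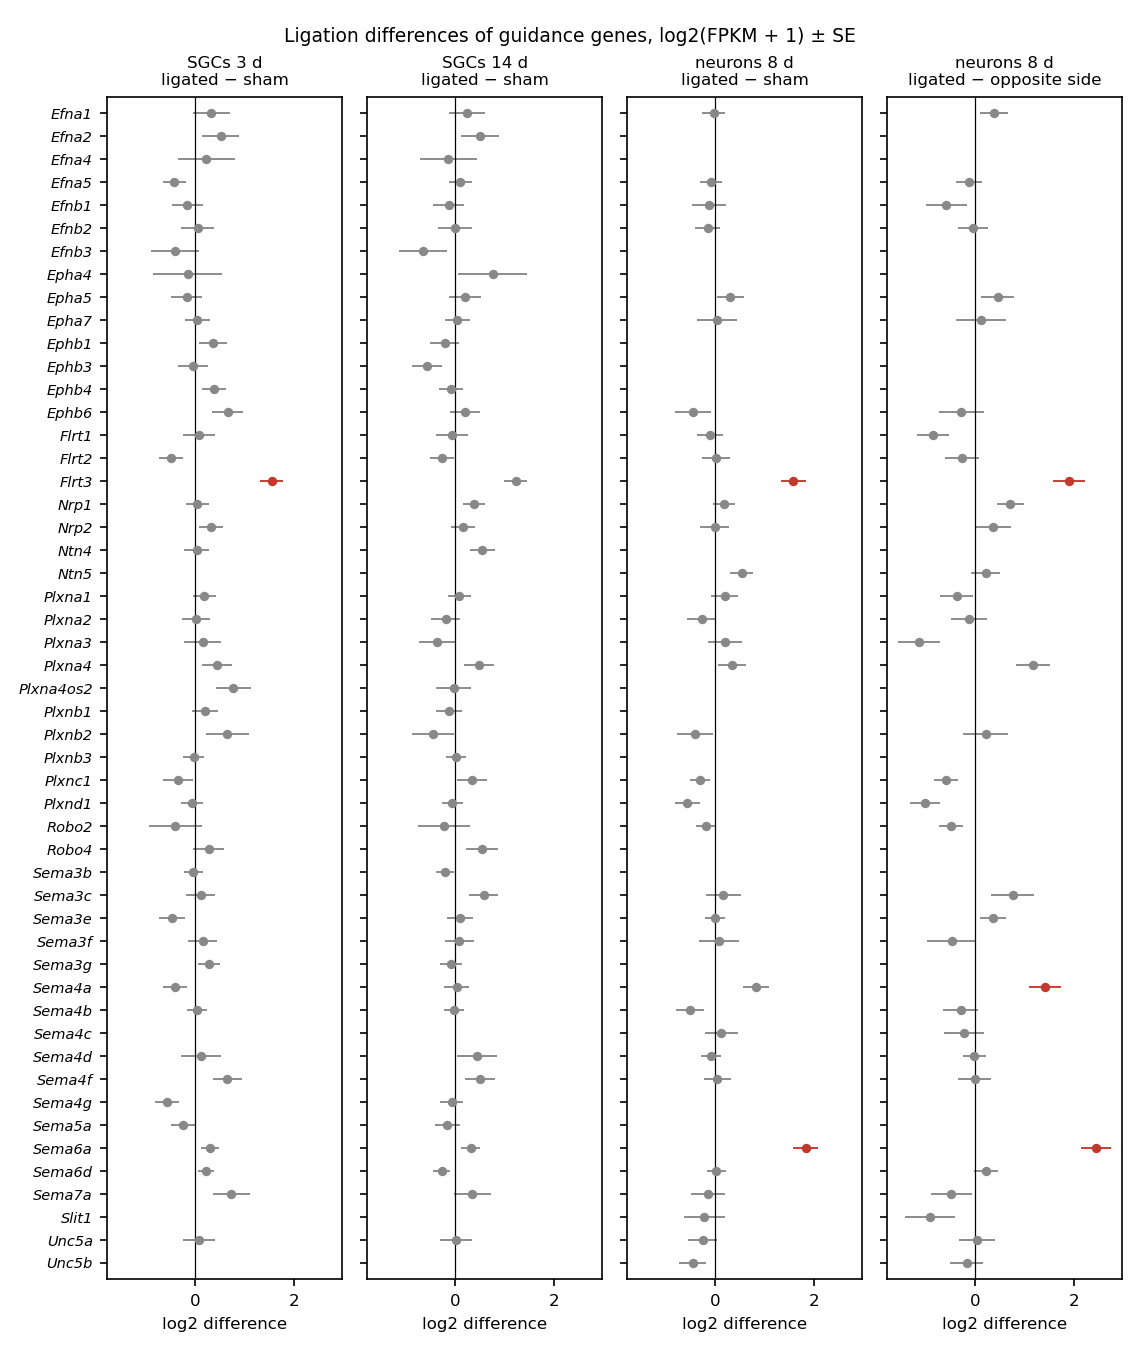
Log2 difference ± SE, on log2(FPKM + 1), of each guidance gene reported in SGCs at 3 d and 14 d and in neurons at 8 d; red marks an adjusted p under 0.05. Flrt3 lies between 1.22 and 1.90 in all 4 panels, and Sema6a stands out in the neuron panels, at 1.83 and 2.44.

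The authors' deposited tables of differential expression were read for the same genes, with their fold changes turned here to ligated over sham. In the authors' deposited table for SGCs at 3 d, Flrt3 (log2 1.69, adjusted p 2.72e-06) and Sema6b, a membrane-bound class 6 semaphorin (3.52, adjusted p 0.000187), were higher and no guidance gene lower, where 0.498% of genes were higher, 0.515% lower and 1.01% either. Sema6b, named after its values were seen, was under the level filter here, at 1.23, 0.337, 0.687 and 0.487 FPKM after ligation and 0.0614, 0.0352, 0.161 and 0.0315 FPKM after sham. In the authors' deposited table for SGCs at 14 d, Flrt3 (1.30, adjusted p 4.11e-08) and Plxna4 (0.90, adjusted p 0.0397) were higher and no guidance gene lower, where 0.641% of genes were higher, 0.412% lower and 1.05% either, and Sema6b was at -0.01. In the authors' deposited table for neurons, Sema6a (2.20), Flrt3 (1.54) and Sema4a (0.91, adjusted p 0.0289) were higher, where 1.38% of genes were, and Plxnd1 was lower (-0.67, adjusted p 0.015), where 0.323% were, 1.7% in either direction. Flrt3 in SGCs at 14 d thus passed there, but not in the FPKM fit here (1.22, adjusted p 0.220 by limma). The differences from the FPKM fits in Flrt3 at 14 d, Plxna4, Sema4a and Plxnd1 go with another test and unit. Their cause was not tested.

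Other genes of the guidance system were taken from a fixed list of 28 other guidance ligands, receptors and inhibitors and a list of 49 genes of the signalling machinery inside the cell. In naive SGCs against whole DRGs 7 of 20 tested genes of the first list were higher and 11 lower, and 11 of 46 of the second were higher and 22 lower, with medians of -0.76 and -0.38 against -0.13 over all genes. Of all genes 44.4% passed there, 16.4% higher and 27.9% lower. Lower in SGCs were the axonal adhesion genes L1cam (-1.96) and Cntn2 (-2.81), the Nogo co-receptor Lingo1 (-1.79) and the Rac regulator Chn1 (-2.75), and higher were the chemokine receptor Cxcr4 (1.69), its ligand Cxcl12 (1.26) and the small GTPase Rhoa (1.33). After ligation no gene of either list passed in SGCs on either day. In neurons the adhesion gene Chl1, a relative of L1cam, was the only 1 of 19 tested genes of the first list that passed, at 9.66 to 21.6 FPKM after ligation and 3.04 to 6.90 FPKM after sham (1.51, SE 0.28, adjusted p 0.0156), and it was also higher on the ligated side, at 11.4 to 29.7 FPKM, than on the opposite side, at 2.28 to 6.81 FPKM (2.11, adjusted p 0.00252). Of 41 tested genes of the second list none passed against sham, and Chn2, a Rac regulator, was higher between the sides (2.22, adjusted p 0.0284 by limma). Chn2 was listed at 0 in every opposite-side, sham, ligated male and ligated female library. It reached the level filter only through the libraries of the ligated side, so it could only have been higher there.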

How the data were processed

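Expression values were deposited by the authors as FPKM in 3 tables, which were scaled separately; the naive table writes decimal commas. STAR, SAMtools, Cufflinks, DESeq2 and the build mm10 are named in the submitters' processing notes, with versions not given in the sources used here. The authors' deposited DESeq2 tables give a baseMean (normalized count signal), a log2 fold change, its standard error and test statistic (scores) and p-values. One more such table names no comparison and was not used.

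Lines sharing a gene ID were summed (among members only Epha5). Genes with at least 1 FPKM in 3 libraries were tested with limma 3.58.1 (R 4.3.3, mean-variance trend, two-sided) on log2(FPKM + 1), which understates changes of low genes. All groups of a table shared a fit, Benjamini-Hochberg adjustment covered every gene tested, and genes under 0.05 were called. The scripts were tested on simulated data. Tables and figures used Python 3.11.15, pandas 2.3.3 and Matplotlib 3.10.9. Named were the called members, those of smallest p up to 12 in a ligation comparison, 1 a family in naive mice, and the 10 highest a table. Members and lists were chosen with earlier results of these data known. Same-numbered replicates did not deviate together (correlations -0.06 to 0.11), so numbers were not treated as pairs. All 74 member IDs matched GENCODE M21. Alternatives were a pseudocount of 0.1, no filter, 4 libraries in the filter, quantile normalization, array weights, only the groups compared, a replicate block and leaving out each library.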

Additional observations from a re-analysis of the deposited data

Results flagged for a closer look

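Of 121 group values examined (groups of 4 libraries), 10 held a library whose gap to its nearest neighbour was above Dixon's 95% critical share of the group's range; chance flags about 1 in 20 groups. In naive libraries these were Unc5c at 0.098 FPKM in an SGC library (others 0 to 0.00735 FPKM), Flrt1 at 6.93 FPKM in an SGC library (others 5.26 to 5.53 FPKM) and Sema6a at 8.78 FPKM in a DRG library (others 5.26 to 5.76 FPKM). In SGCs after surgery they were Sema4f at 4.07 FPKM in a library 3 d after ligation (others 2.14 to 2.42 FPKM), Efnb3 at 0.538 FPKM in a library 14 d after ligation (others 2.30 to 2.63 FPKM), Sema4g at 0.89 FPKM in a 3 d sham library (others 1.33 to 1.37 FPKM), Plxna4os2 at 0.262 FPKM in a 3 d sham library (others 0.0201 to 0.0455 FPKM) and Robo4 at 6.30 FPKM in a 14 d sham library (others 1.89 to 2.40 FPKM). On the opposite side of ligated mice Sema4a had 0.371 FPKM in 1 neuron library and a listed 0 in the others, and Slit1 had 21.2 FPKM in 1 library and 1.81 to 4.61 FPKM in the others. Without that second library the side differences of Sema6a (2.49, adjusted p 0.000548) and Flrt3 (1.86, adjusted p 0.0133) passed.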

How the results depend on the processing

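The count of 1 guidance gene called in SGCs at 3 d became 0 with no filter, with array weights, with only the groups compared and with the replicate block, and was 0 to 1 over the fits without 1 replicate each. At 14 d the count of 0 became 1 with array weights. Between the sides of ligated neurons 3 became 1 with only the groups compared. Naive SGCs against whole DRGs gave 18 to 31 calls over all settings, 31 with quantile normalization and 19 with the replicate block. With quantile normalization 3770 of all genes were called higher and 2756 lower, against 2240 and 3801 as deposited. The block left 0 calls in SGCs at both days (Flrt3 at 3 d adjusted p 0.785 by limma). The replicate numbers are not known to pair samples. The cause of these shifts was not tested. For neurons no paired analysis was possible because their columns carry no replicate number. Of the named genes, the ones recomputed (25 in naive mice and 12 in each ligation comparison), Ntn4 in naive mice reversed: -0.03 became 0.60 with quantile normalization, and without 1 replicate each it ran from -0.107 to 0.0462, above 0 without SGC replicate 2 or 3 or DRG replicate 3. In neurons against sham both calls held in every setting. Where a library is left out, the fit pools the spread of the other groups. FPKM without read counts limits what can be said of genes near 1 FPKM.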
